A study of Synthetic plasmid and Mus musculus with 4 samples.

Results

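The fragments described here are genomic pieces of retina-class (R) target windows that were cloned into a barcoded reporter library but hold fewer than the 300 bases of their window. They were chosen from the deposited construct table as constructs whose target name begins with R and whose stated overlap with the window is below 300 bases. The table lists 6585 of them among 11319 R constructs and 45670 constructs in all. Of these, 5172 had 10 or more counts in each of the 3 retina DNA libraries and are described below, beside 3763 R constructs that held the whole window and passed the same minimum. The choice used position only and no RNA value. By overlap, 218 fragments from 119 targets held under 100 bases, 1538 from 485 targets held 100 to 200 bases, and 3416 from 679 targets held 200 to 300 bases. In these and all later ranges of bases or length, the upper end is not included. The shortest overlap was 22 bases. Partial fragments came from 742 targets, and 609 of these also had a whole-window fragment. The remaining 1413 partial fragments in the table fell under the DNA minimum and enter only the alternative without it.

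The study cloned sonicated C57BL/6J mouse genomic DNA, enriched with RNA baits, into plasmids that each carry a barcode. Newborn (P0) CD-1 retinas took up the plasmid library by electroporation in the dish and were cultured for 8 days, and barcodes were counted in RNA and in DNA of 3 biological replicates of 5 retinas each. The same library was delivered to the cortex of CD-1 mice aged 4 to 6 weeks by injected AAV, a viral vector, and tissue with GFP was dissected 4 to 5 weeks later from 3 replicates of 1 animal each. From knowledge of the study, the letter of a target gives the tissue whose open chromatin (DNase-hypersensitive sites) supplied the window, with R for retina, B for brain, H for heart and L for liver. All groups carry the same library, and electroporation reaches only part of the retinal cells, so fewer active cells and less RNA per cell cannot be told apart in these bulk counts.

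A cis-regulatory element is a stretch of DNA that binds transcription factors and sets how much RNA a nearby promoter makes. DNase-hypersensitive sites are places where chromatin is open, and many such elements lie there. In photoreceptors, the most numerous cells of the rodent retina, homeodomain factors such as CRX and the leucine zipper factor NRL act together on clustered sites within short elements. A fragment that covers only one side of a window can therefore carry some of these sites and lack others, and a reporter assay reads out what the retained stretch does on its own.

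The barcode is the sequence counted in every library, and 1 barcode stands for 1 cloned fragment. The barcodes that follow belong to fragments at which the results below can be seen directly, written in lower case as single runs. The first letter and number give the target, followed by the bases of the window held and the fragment's mm9 position and strand. 
R748 whole window, chr10:44184384-44184933, plus strand: gagacagatctcggg
R748 with 288 bases, chr10:44184438-44184939, plus strand: aacgacaagtgaaac
R748 with 182 bases, chr10:44184544-44184999, minus strand: gtacgtcgacctgat
R748 with 183 bases, chr10:44184543-44184960, minus strand: actccacccacgacc
R748 with 94 bases, chr10:44184632-44185010, minus strand: tctaaggatcttcat
R392 with the left 170 bases, chr11:67495188-67495595, plus strand: ccatacgtcctaccg
R392 with the right 180 bases, chr11:67495546-67496017, minus strand: aagtgttttgagcat
R177 with the left 189 bases, chr9:108982847-108983254, plus strand: accattatgtgcacg
R177 with the right 180 bases, chr9:108983186-108983632, plus strand: taccctacttcgtcc
R221 with the left 234 bases, chr11:78575624-78575999, plus strand: tacttccccgcgata
R221 whole window, chr11:78575687-78576225, minus strand: acccaagtctagaag
R400 with the left 170 bases, chr5:88990249-88990675, minus strand: ccccagcccacaccg
R400 with the right 168 bases, chr5:88990638-88991234, plus strand: gaagttaaatttcgc
R317 with the right 181 bases, chr13:100180505-100180804, minus strand: acctgcttgccgccc
Left and right are in genome coordinates, with no gene or strand implied.

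RNA output stayed close to the whole-window level in fragments that kept 200 or more bases of the window, was several times lower in those with 100 to 200 bases, and was close to the level of the other target classes in those with under 100 bases. Output was measured as the share ratio, the share of a library's RNA counts that a group of fragments held divided by its share of the DNA counts in the same replicate. For whole-window R fragments the share ratio was 4.82, 4.69 and 4.75 in replicates 1, 2 and 3, a mean of 4.75 ± 0.067 (SD, n = 3). Fragments with 200 to 300 bases had 4.24, 4.24 and 4.27, a mean of 4.25 ± 0.020. Those with 100 to 200 bases had 0.800, 0.696 and 0.783, a mean of 0.760 ± 0.056. Those with under 100 bases had 0.070, 0.068 and 0.099, a mean of 0.079 ± 0.017. No replicate of one overlap class reached into the range of the next. Each class differed from the whole-window fragments at p = 0.1 in a two-sided exact permutation test over the 3 replicates, which is the smallest p that 3 against 3 allows. The replicates share all of their constructs, so these SDs cover differences between retina samples and not the choice of fragments.

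Set against the whole-window fragments, the share ratio was 0.895 ± 0.014 at 200 to 300 bases, 0.160 ± 0.0098 at 100 to 200 bases and 0.0166 ± 0.0037 under 100 bases. Because targets differ in strength, the RNA of each partial fragment was also compared with the amount that the whole-window fragments of its own target would have given for the same DNA. This observed over expected RNA was 0.931 ± 0.054 at 200 to 300 bases, over 3042 fragments of 482 targets. It was 0.172 ± 0.0071 at 100 to 200 bases, over 1352 fragments of 370 targets. It was 0.0150 ± 0.0072 under 100 bases, over 187 fragments of 98 targets. The 2 measures thus gave the same order, with and without matching of the targets.

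The B, H and L windows, cloned and counted the same way, give the background. Their share ratio was 0.078 ± 0.0037 for whole-window fragments, 0.080 ± 0.0099 at 200 to 300 bases, 0.074 ± 0.014 at 100 to 200 bases and 0.061 ± 0.012 under 100 bases. These 4 values overlapped across replicates. The replicates of R fragments with under 100 bases, at 0.068 to 0.099, overlapped the background, which spanned 0.051 to 0.090 over its classes and replicates, while R fragments with 100 to 200 bases lay above it in all 3 replicates. B, H and L fragments with under 100 bases alone had 0.057, 0.051 and 0.075 in replicates 1, 2 and 3. R fragments with under 100 bases, at 0.070, 0.068 and 0.099, were higher than these in each replicate.

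The share of fragments with any RNA count told the same order. RNA was seen from 43.9% ± 3.68 of whole-window R fragments per replicate, from 40.2% ± 3.78 at 200 to 300 bases, from 19.4% ± 3.45 at 100 to 200 bases and from 11.3% ± 1.48 under 100 bases. The share of B, H and L fragments with RNA was 11.2% to 11.7% in the 4 overlap classes. Only the class with 200 to 300 bases overlapped the whole-window fragments in this measure (exact permutation p = 0.3). The classes below it did not overlap them (exact permutation p = 0.1 each). DNA depth was alike, with medians of 211.5 to 231 counts per fragment in replicate 1 in the 4 R classes, 102.5 to 115.5 in replicate 2 and 202 to 209 in replicate 3. No RNA count in any replicate was recorded from 39.9% of fragments with 200 to 300 bases, 61.1% with 100 to 200 bases and 72.9% with under 100 bases, against 37.7% of whole-window fragments.

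In steps of 25 bases, the level rose with the bases held up to 275 bases, with rises of unlike size in the matched and unmatched values. With targets matched, the level was alike at 75 to 100 and 100 to 125 bases. Relative to whole-window fragments, the share ratio was 0.021 ± 0.0032 at 75 to 100 bases, 0.036 ± 0.012 at 100 to 125, 0.070 ± 0.0086 at 125 to 150 and 0.0935 ± 0.0024 at 150 to 175. It was 0.310 ± 0.024 at 175 to 200 bases, 0.691 ± 0.030 at 200 to 225 and 0.883 ± 0.042 at 225 to 250. At 250 to 275 bases it was 1.05 ± 0.016, and at 275 to 300 bases 0.876 ± 0.0050. With targets matched, observed over expected RNA was 0.0213 ± 0.0072 at 75 to 100 bases, 0.0213 ± 0.0090 at 100 to 125 and 0.104 ± 0.014 at 125 to 150. The matched values were 0.123 ± 0.017 at 150 to 175 bases, 0.254 ± 0.033 at 175 to 200, 0.586 ± 0.040 at 200 to 225 and 0.794 ± 0.098 at 225 to 250. It was 1.13 ± 0.094 at 250 to 275 bases and 1.12 ± 0.015 at 275 to 300 bases. Summed over matched targets, fragments that lacked up to 50 bases thus gave no less RNA than the whole window. The unmatched ratio at 275 to 300 bases did lie below the whole window. At the edge of the rule, the 406 fragments that lacked 1 to 10 bases had a share ratio of 4.02 ± 0.186. The 494 that held the window with 0 to 9 bases to spare had 5.30 ± 0.098.

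Pooled sums are led by strong targets, so the fall was also followed target by target. Whole-window fragments of each target were divided by alternate barcode order into a choosing and a comparing set. The choosing set called 107 of 417 R targets active (edgeR, RNA above DNA), and no target of another class, so 5.99% of the 1787 targets tested over all classes were called. The comparing set, which took no part in that choice, served as reference for the 89 active targets with 2 or more fragments there. RNA was seen from 87.7% ± 2.29 of the comparing fragments, 81.9% ± 3.25 of those with 200 to 300 bases, 30.6% ± 1.95 of those with 100 to 200 bases and 7.33% ± 4.16 of those with under 100 bases. Observed over expected RNA in these targets was 0.938 ± 0.148, 0.148 ± 0.019 and 0.0025 ± 0.0027.

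Single targets varied widely around these values. Fragments with 200 to 300 bases came from 85 active targets, and their median ratio to the comparing fragments was 0.850 ± 0.109. Of these targets, 52 had a ratio between 0.5 and 2, 20 lay between 0.1 and 0.5, 1 lay below 0.1 and 12 lay above 2. In 23 of the 85 they were lower in all 3 replicates and in 16 higher in all 3. For fragments with 100 to 200 bases, the median over 73 targets was 0.0164 ± 0.0027. There, 52 targets lay below 0.1, of which 11 gave no RNA at all, 13 lay between 0.1 and 0.5, 5 between 0.5 and 2, and 3 above 2. In 63 of the 73 the partial fragments were lower in all 3 replicates and in 2 they were higher in all 3. All 22 targets with fragments under 100 bases lay below 0.1, and 14 of them gave no RNA count.

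In the active targets the same 25-base steps gave observed over expected RNA of 0.0054 ± 0.0038 at 100 to 125 bases, 0.045 ± 0.014 at 125 to 150, 0.112 ± 0.018 at 150 to 175, 0.232 ± 0.037 at 175 to 200, 0.561 ± 0.108 at 200 to 225 and 0.812 ± 0.123 at 225 to 250. The share of fragments with RNA went from 12.6% ± 3.93 through 17.1% ± 3.78, 26.5% ± 2.48, 50% ± 0.847 and 68.3% ± 6.40 to 79.3% ± 5.21 over those steps. More fragments thus gave RNA as more of the window was held, alongside the rise in summed output.

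R748, on chromosome 10 from 44184426 to 44184725, has 11 whole-window and 28 partial fragments spread over all 3 overlap classes, and all but 1 of the partial fragments lie on the right side. Its 11 whole-window fragments together gave 21918, 44841 and 58218 RNA counts in replicates 1, 2 and 3 from 2708, 2213 and 2423 DNA counts. The 11 fragments with 200 to 300 bases gave 30403, 32366 and 62684 RNA counts from 2096, 1704 and 2865 DNA counts, so RNA per DNA count was 18.5 ± 3.72 against 17.5 ± 8.33 for the whole window. The 8 fragments with 100 to 200 bases gave 4624, 4604 and 9893 RNA counts from 4054, 2170 and 3386 DNA counts, or 2.06 ± 0.892 per DNA count.

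The 9 R748 fragments with under 100 bases, all from the right side and holding 48 to 95 bases, gave 0, 0 and 3 RNA counts from 3605, 1425 and 3077 DNA counts. Their difference from the whole window had an edgeR adjusted p of 0.0073 and a limma adjusted p of 1.9e-05. Within the class of 100 to 200 bases, neighbouring fragments differed: the one with 182 bases gave 1433, 2817 and 5807 RNA counts from 271, 12 and 146 DNA counts, and the one with 183 bases gave 156, 0 and 0 from 184, 59 and 267. These 2 fragments begin 1 base apart, lie on the same strand and end at different places outside the window, so overlap alone did not order them. The 2 shortest of the class, with 107 and 145 bases, had RNA in replicate 2 alone, with 31 and 4 counts.

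R392, on chromosome 11 from 67495426 to 67495725, gave more RNA than any other target in both the whole-window class and the class of 200 to 300 bases, with 9.65% ± 1.14 and 13.6% ± 0.137 of their RNA. Its left and right pieces of similar size differed. The left fragment with 170 bases gave 8048, 5824 and 12077 RNA counts from 87, 27 and 136 DNA counts. The left fragment with 179 bases gave 3331, 2933 and 5728 from 66, 13 and 37. The right fragment with 180 bases gave 0, 3 and 0 from 339, 40 and 373, and that with 150 bases gave none from 241, 148 and 310. A right fragment with 162 bases gave 2113, 0 and 1154 from 46, 82 and 123. Both left pieces were high in every replicate, and the right pieces were at or near 0 in at least 1 replicate each. The sides differed in this way for pieces of 100 to 200 bases: right fragments with 211 and 217 bases had log2 RNA/DNA (as shares of the library, prior count 2) of 5.00 ± 0.65 and 7.10 ± 1.02, and the other right fragment with under 250 bases in that class had 3.24 ± 1.01. Over all its partial fragments RNA per DNA count was 53.7 ± 13.6 on the left and 50.7 ± 18.8 on the right (edgeR adjusted p = 0.82). The right fragment with 55 bases gave no RNA from 851, 67 and 259 DNA counts, at least 17678-fold below the whole window per DNA count when 0 is replaced by a floor of 3 counts over the 3 libraries.

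R177, on chromosome 9 from 108983066 to 108983365, had RNA on the other side among pieces of 100 to 200 bases. The right fragment with 180 bases gave 19409, 9990 and 25318 RNA counts from 535, 251 and 700 DNA counts. The left fragment with 189 bases gave 0, 0 and 130 from 2549, 1035 and 2019. The left fragment with 167 bases gave none from 278, 328 and 297. Relative to the comparing fragments, the right pieces of 100 to 200 bases reached 0.655 and the left pieces 0.00065. Left fragments with 270 to 297 bases had RNA in every replicate, with log2 RNA/DNA of 4.83 to 5.73. The 3 fragments with under 100 bases gave no RNA from 975, 372 and 819 DNA counts, at least 18395-fold below the 33 whole-window fragments by the same floor. Those 33 fragments gave 299053, 266327 and 371206 RNA counts.

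R221, on chromosome 11 from 78575766 to 78576065, gave no RNA in any partial fragment. Its 6 partial fragments, all from the left side and holding 54 to 234 bases, gave no RNA count from 1460, 861 and 1066 DNA counts. Its 3 whole-window fragments gave 12394, 13249 and 17174 RNA counts from 429, 158 and 395 DNA counts. The 2 fragments with 200 and 234 bases were at least 29039-fold lower per DNA count, by the floor of 3 counts. Every one of these left fragments lacked the right 66 or more bases of the window.

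R400, on chromosome 5 from 88990506 to 88990805, kept RNA on the left and had none on the right. Its left fragment with 170 bases gave 1381, 2974 and 4484 RNA counts from 799, 142 and 662 DNA counts. Its 3 right fragments, with 168, 241 and 260 bases, gave none from 312, 226 and 344. All 6 whole-window fragments gave RNA, together 5340, 9294 and 10150 counts from 2666, 912 and 1974 DNA counts. The left fragments as a group were at least 1296-fold above the right ones by the floor (edgeR adjusted p = 0.022 for left against right), but limma gave an adjusted p of 0.16.

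R317, on chromosome 13 from 100180386 to 100180685, was a case in which a partial fragment exceeded the whole window. The right fragment with 181 bases gave 25878, 22470 and 28576 RNA counts from 577, 276 and 669 DNA counts, a log2 RNA/DNA of 5.99 ± 0.44. All 4 left fragments of 100 to 140 bases together gave 0, 0 and 83 RNA counts. Among its 20 whole-window fragments the highest log2 RNA/DNA was 2.27 ± 1.13. As a class its 5 fragments of 100 to 200 bases lay 9.96-fold above the comparing whole-window fragments, with 12.9, 9.69 and 7.66 in the 3 replicates, and 1 barcode supplied nearly all of it. The other targets above 2 were R699, at 5.17, and R272, at 2.14. R272 rests on 1 fragment whose replicate values were 0.012, 3.97 and 0.0045, and R699 varied from 2.32 to 471.

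Across targets, left and right fragments gave slightly different pooled output. A fragment's side was set by its start alone: every left fragment lacked the right end of the window, but 117 right fragments, 110 of them with 200 to 300 bases, also lacked only the right end and so held the left part. At 200 to 300 bases, observed over expected RNA was 0.826 ± 0.060 for 1438 left fragments and 1.02 ± 0.064 for 1602 right fragments. At 100 to 200 bases it was 0.142 ± 0.0056 for 754 left and 0.188 ± 0.0090 for 598 right fragments. Neither pair overlapped between replicates (exact permutation p = 0.1 each). Under 100 bases it was 0.029 ± 0.016 for 118 left and 0.0077 ± 0.0076 for 69 right fragments (exact permutation p = 0.2). Relative to the whole-window level without matching of targets, the gap at 100 to 200 bases was wider, at 0.0856 ± 0.0026 left and 0.263 ± 0.021 right. The share of fragments with RNA overlapped between the sides in each class, at 18.6% ± 3.76 left and 20.5% ± 3.28 right for 100 to 200 bases.

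Within single active targets there was no common side. Of 33 active targets with both a left and a right fragment of 100 to 200 bases, 16 lay below 0.1 of the comparing fragments on both sides. Another 5 reached 0.1 or more on the left alone, 8 on the right alone and 4 on both. The left was higher in 16 of the 33 and the right in 17. With 200 to 300 bases held, 66 of 71 targets reached 0.1 on both sides, 2 on the left alone and 3 on the right alone. R400 was one of the left-only targets there, and R911, R742 and R175 were the right-only ones.

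Target by target, the difference of left minus right in log2 RNA/DNA was tested in an edgeR fit over all classes. It called 30 of 253 R targets lower on the left, or 11.9%, and 22 higher on the left, or 8.70%. Over targets of all classes, the fit called 15.7% lower and 14.8% higher, so neither R share was above the background. Limma on the replicate differences called none of them in either direction. At an unadjusted p under 0.05 limma had 15 of 253 R targets lower and 19 higher. Over all classes that was 33 and 44 of 1004. The edgeR fit called none without replicate 1 or without replicate 3. The largest calls lower on the left were R199, R263, R625, R444 and R707, and the largest higher on the left were R400, R862, R476, R917 and R38. R199 gave no RNA from 2 left fragments and 3472, 3825 and 8230 RNA counts from 8 right ones. In R263 the 4 left fragments gave 0, 16 and 0 RNA counts and the 2 right ones 6333, 4041 and 2747.

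R862, on chromosome 4 from 128398526 to 128398825, had 2 left fragments with 531, 438 and 465 RNA counts and 4 right fragments with none, a difference of at least 1215-fold by the floor. A right fragment lacking only 13 bases of the window was among those without RNA, with 19, 87 and 44 DNA counts. Its 7 whole-window fragments also split. The 2 with most RNA, with 186, 1 and 1177 counts in one and 16, 307 and 977 in the other, began at 128398294 and 128398331. The 5 that began at 128398336 or further right gave at most 19 counts in any replicate. Whole-window fragments of this target thus differed among themselves, and those that reached furthest left had the most RNA.

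The edgeR fits of partial against whole-window fragments were run over targets of all classes, and the R shares called are given beside the shares over all classes. The difference between these shares was not tested. With all partial fragments pooled, 58 of 433 R targets were called lower and 40 higher, or 13.4% and 9.24%. Over all classes 12.3% were called lower and 15.6% higher. At 200 to 300 bases, 56 of 462 R targets were called lower and 42 higher, or 12.1% and 9.09%, against 17.4% and 14% over all classes. At 100 to 200 bases, 146 of 348 R targets were called lower and 14 higher, or 42.0% and 4.02%, against 34.9% and 8.69%. Under 100 bases, 60 of 92 R targets were called lower, or 65.2%, and 0 higher, against 50.4% and 3.96% over all classes. No R target was higher under 100 bases at an unadjusted p under 0.05 either, while limma had 2 there and called 0. Over all classes 17 of 379 targets were higher at that p in edgeR and 11 in limma.

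These count fits called most targets that had no RNA on one side, in R and in the other classes. For all partial fragments that was 340 of 366 such B, H and L targets. It was 140 of 166 under 100 bases, 383 of 453 at 100 to 200 bases and 403 of 457 at 200 to 300 bases. Limma on the 3 replicate differences, chosen after this was seen, gave a different background. Under 100 bases it called 32 of 92 R targets lower and 0 higher, against 8.44% lower and 0.264% higher over all classes and 0 of 287 B, H and L targets lower. At 100 to 200 bases it called 48 of 348 R targets lower and 2 higher, against 3.65% and 0.146% over all classes and 2 of 1022 B, H and L targets lower. For all partial fragments and for 200 to 300 bases it called 0. For all partial fragments, 20 of 433 R targets were lower and 12 higher in limma at an unadjusted p under 0.05. Over all classes that was 56 and 69 of 1777. At 200 to 300 bases, 24 of 462 R targets were lower and 9 higher, against 73 and 59 of 1802 over all classes. The median log2 difference over R targets in limma was -3.18 under 100 bases and -2.63 at 100 to 200 bases, against 0.11 and 0.01 over the B, H and L targets. Whole-window B, H and L fragments gave little RNA (share ratio 0.078), so with a prior count their limma differences had little room to fall. Their few lower calls and small medians were largely set by this, and no conclusion is drawn from them. In the class of 200 to 300 bases it was -0.15 in R and 0.08 in the others. Replicates weighed on the edgeR counts: without replicate 1 no R target was called for all partial fragments, at 100 to 200 bases or at 200 to 300 bases, and without replicate 3 none for all partial fragments or at 200 to 300 bases, while 50 to 64 were called lower under 100 bases with any 1 replicate left out.

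The largest decreases by class were those of R177, R392 and R748 under 100 bases, of R491, R221 and R189 at 100 to 200 bases, and of R221, R14 and R249 at 200 to 300 bases. R491, on chromosome 9 from 83679186 to 83679485, gave no RNA from 1 partial fragment with 339, 252 and 716 DNA counts. Its 2 whole-window fragments gave 84442, 91672 and 136720 RNA counts. R189, on chromosome 13 from 41339706 to 41340005, gave none from 3 partial fragments of 100 to 200 bases with 969, 411 and 509 DNA counts, against 124215, 141109 and 238534 RNA counts from 23 whole-window fragments. Under 100 bases R177, R392 and R748 passed limma as well as edgeR, as did R491, R221 and R189 at 100 to 200 bases. The 3 named at 200 to 300 bases did not pass limma (adjusted p = 0.077 for R221, 0.39 for R14 and 0.68 for R249), and R249 had 838, 601 and 91 RNA counts in its whole-window fragments.

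With all partial fragments pooled, R221, R249, R337, R225, R247, R190, R111 and R297 had the largest decreases. In R225, 2 partial fragments gave 0, 13 and 23 RNA counts from 736, 379 and 417 DNA counts, and 2 whole-window fragments gave 3019, 4174 and 3523 from 398, 325 and 562, a 355-fold difference per DNA count. In R247 the difference was 315-fold, with 2, 9 and 0 RNA counts from the 3 partial fragments and 5394, 3117 and 3284 from the 2 whole-window ones. R337 and R111 had at most 325 and 1858 RNA counts in any replicate.

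The largest increases, R476, R870, R919, R290, R750, R278, R444 and R897, were all targets whose whole-window fragments gave no RNA. R476, on chromosome 11 from 67516626 to 67516925, had 3 whole-window fragments at 0 and 4 fragments of 100 to 200 bases with 164, 1458 and 1242 RNA counts from 1040, 446 and 1518 DNA counts. One left fragment of 192 bases gave 150, 1352 and 1242 of these. R476 passed limma at 100 to 200 bases (adjusted p = 0.046), and R527 and R290, the next largest there, did not. R919 rested on replicate 3, with 1, 1 and 393 RNA counts. The largest increases at 200 to 300 bases were R870, R203 and R897. R203 rested on 1 fragment with 946, 565 and 18 RNA counts from 94, 16 and 114 DNA counts.

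Fragment by fragment, edgeR called 372 of 5172 partial R fragments higher in RNA than in DNA, or 7.19%, against 2.33% of the 36005 constructs of all classes and 12.4% of whole-window R fragments. Of the 838 calls over all classes, 465 were whole-window R and 372 partial R fragments. The 2.33% is thus made up almost wholly of R calls and is not the share among B, H and L fragments. By overlap the calls were 344 of 3416 at 200 to 300 bases, or 10.1%, 28 of 1538 at 100 to 200 bases, or 1.82%, and 0 of 218 under 100 bases, where 0 also passed an unadjusted p under 0.05. The total was 80 in edgeR with median-ratio size factors and 737 in DESeq2, which is another tool with its own test. Neither total is set beside a share over all constructs in the same setting, so the 2 show only how far the count moved.

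The fragments with the highest log2 RNA/DNA in each class showed how far single pieces could go. At 200 to 300 bases they were a left fragment of R392 with 261 bases, at 8.35 ± 0.86, a right fragment of R366 with 261 bases, at 8.12 ± 1.28, and a right fragment of R428 with 278 bases, at 7.83 ± 0.88. At 100 to 200 bases they were the left fragments of R392 with 170 and 179 bases, at 7.12 ± 0.53 and 7.06 ± 0.60, and the R317 fragment already described. All 6 had an edgeR adjusted p of at most 1.8e-12. Under 100 bases only 2 fragments had RNA in all 3 replicates. One, of R1 with 88 bases, gave 19, 1000 and 156 RNA counts from 115, 47 and 48 DNA counts. The other, of R418 with 94 bases, gave 1074, 181 and 198 from 1764, 543 and 1375. Neither passed edgeR (adjusted p = 0.64 and 0.69), and replicate 2 of R1 and replicate 1 of R418 stood far above the others.

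Few targets held most of the RNA that was left at 100 to 200 bases, as was also so with 200 or more bases. R317 held 10.1% ± 1.47 of the RNA at 100 to 200 bases, R428 10.0% ± 1.65, R177 7.18% ± 1.86, R911 6.41% ± 1.54 and R392 5.16% ± 0.780. In total, 313 targets had any RNA in that class. R428 gave 25265, 16773 and 38665 RNA counts from 7 such fragments, 4.24-fold less per DNA count than its 6 whole-window ones. R911 gave 11476, 13283 and 27123 from 2 fragments, and its 18.3 ± 8.38 RNA counts per DNA count overlapped the 15.4 ± 5.48 of its 4 whole-window fragments.

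Leaving out the fragment with most RNA in each target and class gave a share ratio relative to the whole window of 0.0475 at 100 to 200 bases and 0.000655 under 100 bases. This step removes unequal parts of the classes, 50 of 218 fragments under 100 bases and 313 of 1538 at 100 to 200 bases but 583 of 3763 with the whole window, so by construction it lowers the shorter classes more. Without the 10 targets with most whole-window RNA, the ratio at 200 to 300 bases was 1.07 in place of 0.895. Those targets were chosen by the RNA of the reference itself, so by construction leaving them out tends to raise the ratio. No conclusion is drawn from the rise. Under 100 bases the ratio was then 0.0278.

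The place of the retained stretch within the cloned fragment was compared as well. The end was assigned from side and strand, so the 117 right fragments lacking only the right end were given the opposite end. Of these, 110 held 200 to 300 bases. At 200 to 300 bases, observed over expected RNA was 1.14 ± 0.095 where the window part was assigned to the 3' end of the fragment's stated strand. It was 0.732 ± 0.047 where that part was assigned to the 5' end, with no overlap between replicates (exact permutation p = 0.1). For 100 to 200 bases the values were 0.179 ± 0.020 and 0.165 ± 0.0091, which overlapped, while the share ratios of 0.856 ± 0.081 and 0.673 ± 0.047 did not (p = 0.1, exact permutation test). Under 100 bases the order was the other way, with observed over expected RNA of 0.0083 ± 0.00071 at the 3' end and 0.031 ± 0.023 at the 5' end, which overlapped, and share ratios of 0.054 ± 0.0079 and 0.10 ± 0.037, which did not (p = 0.1, exact permutation test). How the stated strand relates to the reporter's promoter is not given in the sources used here. Share ratios at 200 to 300 bases were 5.09 ± 0.0085 for minus-strand and 3.31 ± 0.049 for plus-strand fragments, and whole-window fragments went the same way with 5.01 ± 0.118 and 4.42 ± 0.088.

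Partial fragments were shorter, with median lengths of 441 bp, 444 bp and 449 bp from the lowest to the highest overlap class against 484 bp for whole-window fragments. At 100 to 200 bases the share ratio was 1.20 ± 0.096 for fragments below 400 bp, 0.679 ± 0.051 for 400 to 500 bp and 0.433 ± 0.029 for 500 bp or more. The short R317 fragment, 300 bp long, belongs to the first of these. The values at 200 to 300 bases were 4.63 ± 0.201, 4.03 ± 0.033 and 4.40 ± 0.202, in no order of length. Among fragments of 400 to 550 bp alone, the ratio to the whole window was 0.838 at 200 to 300 bases and 0.132 at 100 to 200 bases.

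In cortex the classes lay close together and the shortest overlaps were highest. R fragments passing the DNA minimum there had a share ratio of 0.827 ± 0.025 for the whole window, 0.814 ± 0.015 at 200 to 300 bases, 0.778 ± 0.065 at 100 to 200 bases and 1.05 ± 0.072 under 100 bases (exact permutation p = 0.1 against the whole window for the last). Relative to the whole window the cortex ratios were 0.984 ± 0.020, 0.940 ± 0.059 at 100 to 200 bases and 1.27 ± 0.080 under 100 bases. The tissues differ in delivery, age and time as well as in cell type, and these cannot be told apart here. Depth was of the same order across the retina libraries, with 7025820 to 10411511 RNA counts and 6501061 to 12147398 DNA counts.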

How the data were processed

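Per the file headers, the files deposited by the authors hold unnormalized counts of each barcode in 3 RNA and 3 DNA libraries a tissue, and a construct table with each fragment's position, strand, target and overlap with its window. Build mm9 and the tools Bowtie2 2.1.0, bedtools 2.22.1, SAMtools 0.1.19 and FastQC come from the submitters' processing notes, without roles. Barcode reads are not independent molecules, so counting floors cover counting error only. Starts, deposited from 0, are printed from 1. The window of a target was placed from partial fragments that end or start inside it, where only 1 position matched the stated overlap of every fragment. That was so for 714 of 858 R targets. The 215 partial fragments of targets without a median whole-window start have no side.

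Counts were joined on the barcode, and constructs needed 10 counts in each retina DNA library. Share ratios, observed over expected RNA (2 or more whole-window fragments per target) and the share with RNA were computed per replicate. Targets were tested in R 4.3.3 by the robust quasi-likelihood test of edgeR 4.0.16 (part by RNA interaction with a library term, Benjamini-Hochberg over all targets tested, threshold 0.05) on counts summed over 2 or more constructs a side (1 or more of an overlap class) and 10 or more RNA counts. Constructs were tested as RNA against DNA with trimmed-mean scaling and the replicate as a block, because its 2 kinds of library share the same retinas. DESeq2 1.42.0, limma 3.58.1, other minimums and scalings, and each replicate left out were alternatives. The fits were tested on simulated counts. Members, lists and comparisons were chosen with earlier results of these data known. The rule drew on targets past 0.05 with 1 sign in all 3 replicates. Of these it named the 8 largest differences each way for all partial fragments, 3 per overlap class and 5 for left against right. It also named the 3 highest fragments of a class. R317, R428, R911, R699, R272, R742, R175, R384, R604 and R321 were chosen after their values were seen. No genome of build mm9 was used, so window sequences, motifs and gene annotation are not reported here. All columns of per-sample values were mapped.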

Additional observations from a re-analysis of the deposited data

Results flagged for a closer look

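R fragments with under 100 bases of their window lay on opposite sides of the whole-window level in the 2 tissues. In cortex, every replicate was above it, with a share ratio relative to whole-window R fragments of 1.24, 1.20 and 1.35, a mean of 1.27 ± 0.080 (SD, n = 3). In retina, every replicate was below it, with 0.0145, 0.0145 and 0.0209. The difference between the tissues was not tested. The number of fragments in this class is small, at 218 in retina.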

How the results depend on the processing

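The order of the 3 partial overlap classes held under every alternative tried for the class ratios, but sizes moved. The class of 200 to 300 bases did not stay below the whole window in all of them. Of 180 class ratio values recomputed, 174 lay below 1. Read as a mean of fragment log2 ratios, in which fragments without RNA take a value set by the prior count of 2, the ratio to the whole window from the lowest to the highest overlap class was 0.172, 0.235 and 0.787, and observed over expected RNA was 0.147, 0.234 and 0.794. Without the top fragment of each target and class they were 0.000655, 0.0475 and 0.835, with observed over expected RNA of 0.000593 and 0.0528 in the lower 2. That step takes out 50 of 218 and 313 of 1538 fragments of the lower 2 classes and 583 of 3763 with the whole window, which by construction lowers the shorter classes more. Fragments of 400 to 550 bp gave 0.132 and 0.838 in the upper 2, with 0.140 at 100 to 200 bases matched by target. Without R392 the ratio at 200 to 300 bases was 0.856. Without the 10 targets with most whole-window RNA, chosen after seeing the data, it turned to 1.07. The lower classes then had 0.0278 and 0.231, or 0.185 matched by target at 100 to 200 bases. Choosing targets by the RNA of the reference tends by construction to raise these ratios, and the cause was not tested. The difference in percent with RNA was -30.1 and -22.6 for the lower 2 with no DNA minimum, and -2.77 at 200 to 300 bases at middle DNA depth. Observed over expected RNA at 200 to 300 bases ranged from 0.926 to 0.995 with 1 replicate left out.

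Target counts were less stable. Counts of R targets lower and higher are given with, in brackets, the percent called over all classes. With no replicate block they were 13 and 2 for all partial fragments (0.844% and 0.619%), 93 and 6 at 100 to 200 bases (11.0% and 2.41%), 6 and 3 at 200 to 300 bases (0.499% and 0.333%) and 8 and 6 for left against right (0.996% and 0.896%). Limma gave 0 and 0 for all partial fragments, at 200 to 300 bases and for left against right, 32 lower under 100 bases, and 48 and 2 at 100 to 200 bases, with the shares in the report. DESeq2 gave 96 and 52 for all partial fragments (14.6% and 17.3%), 52 and 24 at 200 to 300 bases (10.9% and 9.27%) and 44 and 37 for left against right (12.7% and 12.6%). With 3 constructs a side, which leaves fewer targets, they were 38 and 27 for all partial fragments (9.80% and 13.1%), 12 and 0 under 100 bases (35.3% and 4.71%), 54 and 5 at 100 to 200 (24.5% and 6.55%), 24 and 19 at 200 to 300 (10.6% and 11.8%), and 15 and 11 for left against right (11.3% in both directions). With 1 construct a side they were 82 and 61 for all (14.0% and 17.2%), 159 and 24 at 100 to 200 (34.4% and 10.6%), and 59 and 47 for left against right (20.5% and 17.8%). Without the top construct of each side they were 52 and 1 under 100 bases (74.9% and 3.32%) and 179 and 9 at 100 to 200 (56.8% and 7.80%). With 1 replicate left out, calls ranged from 0 to 60 lower and 0 to 50 higher for all partial fragments, 50 to 64 lower and 0 to 2 higher under 100 bases, 0 to 163 and 0 to 20 at 100 to 200, 0 to 56 and 0 to 52 at 200 to 300, and 0 to 43 and 0 to 34 for left against right. The shares over all classes then ranged from 0% to 15.8% and 20.1%, 39.0% to 57.6% and 3.90% to 7.57%, 0% to 41.3% and 13.0%, 0% to 20.1% and 17.3%, and 0% to 21.6% and 20.8% in the same order. Partial R fragments called numbered 80 with median-ratio factors, 737 with DESeq2 and 208 to 256 with 1 replicate left out. Shares over all constructs are not given for these settings, so the totals show only how far the count moved. Of the 41 named target results, 17 were called without the block and 7 in limma. None changed sign in 493 refits. The rule had taken only large differences with 1 sign in all 3 replicates, so by construction a change of sign was unlikely, and its absence is no measure of stability. The class under 100 bases had 10889 RNA counts in all.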
